A study of Mus musculus with 4 samples.

Results

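The 10 genes described here encode inhibitors that restrain RAS-MAPK signaling, and they were chosen by name: Spry1, Spry2, Spry4, Spred1, Spred2, Spred3, Dusp4, Dusp5, Dusp6 and Rasa1. They are 10 of 21911 protein-coding genes in GENCODE release M21 (mouse, mm10, the same build as GRCm38). Every called Foxr2 peak in the body of each gene, or up to 10 kb beyond either end, was taken, and peaks at promoters were told apart from distal peaks. Foxr2 is a forkhead transcription factor, and its contacts with chromatin were mapped by CUT&RUN, in which an antibody carries a nuclease to the protein so that the DNA next to it is cut out and sequenced. The antibody recognized a V5 tag fused to the C-terminus of FOXR2. The Foxr2 p53LOF group held 2 replicates of a C57BL/6J neurosphere line, grown from a brain tumor that followed in utero electroporation (IUE) with a piggyBac vector, in which a CAG promoter drives FOXR2, and with CRISPR/Cas9 against Trp53. The V5 control group held 2 replicates from another IUE model on the same strain, with the labelled genotype H3.3G34R and without the tag. Both models came from IUE and were cross-linked with 0.1% formaldehyde for 1 minute before CUT&RUN. According to the methods, lines were plated in medium with EGF, basic FGF and PDGF, whose receptors signal through RAS. All binding values therefore concern an overexpressed, tagged protein in cultured cells, and the 2 groups differ in genotype as well as in the tag, which cannot be told apart here. Neither labels nor methods say that replicates were separate cultures, so the spread between them may be technical. Peak lists carry no expression, and the identity of the lines was not checked against marker genes.

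The Foxr2 p53LOF lists held 31909 and 38580 peaks, and the V5 control lists held 308 and 124. Each peak has a fold enrichment, the fragments at its summit plus 1 over the background of its own library plus 1. That background, in fragments per base, was 1.26 in Foxr2 p53LOF replicate 1 and 2.04 in replicate 2, the deeper of the pair, and the V5 control libraries had 1.69 and 0.642. A peak was kept when its fold and its −log10 q were both above 6, it was shorter than 10000 bp and it shared less than 10 bp with any control peak. A fold above 6 took 13 fragments in Foxr2 p53LOF replicate 1 and 18 in replicate 2. Where kept peaks of the 2 replicates overlapped, the shared stretch was called a reproducible site. A site or peak was called a promoter one when it came to 1 kb or less from where a protein-coding transcript of the gene begins. With 2 libraries against 2, an exact permutation test cannot give a two-sided p below 0.333, so no test was made between the groups. In a bulk sample, a lower fold cannot be told apart from binding in fewer of the cells.

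RAS passes signals from growth factor receptors to the kinases RAF, MEK and ERK. The proteins described here act as brakes at successive steps of that route. Sprouty proteins (Spry1, Spry2, Spry4) and the related SPRED proteins (Spred1, Spred2, Spred3) limit activation of RAS and RAF, SPRED proteins by bringing the RAS-inactivating protein neurofibromin to the membrane. Rasa1 encodes a GTPase-activating protein that switches RAS off. Dusp4, Dusp5 and Dusp6 encode dual-specificity phosphatases that remove the activating phosphates from ERK. Many of these genes are themselves switched on by ERK, in part through ETS transcription factors and through release of the repressor Capicua, which makes them feedback inhibitors and common readouts of MAPK activity.

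Foxr2 sites were found at each of the inhibitor genes. All 10 regions held a reproducible site, compared with 50.0% of all protein-coding genes. A promoter site was present at 9 of 10, compared with 39.2% of all genes, and the exception was Dusp5. A distal site was present at 6 of 10, compared with 25.8%. Only Spry4, Spred2 and Dusp5 had one with its own summit in both replicates away from any gene start. The share over all genes was not narrowed in that way. Among 15959 genes whose regions were as long as those of the inhibitor genes, the 3 shares were 52.9%, 42.4% and 25.9%. Neither V5 control list held a peak in any of the 10 regions, where 0.557% of all genes had one. The nearest control peak lay 1707 kb away, from Spry4. The control lists begin at folds of 4.08 and 4.87, so weaker signal in those libraries would not be seen. In total, the 10 regions held 17 of the 11947 reproducible sites of the series, of which 10 were promoter sites and 7 were distal.

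Promoter sites of these genes carried the octamer recognized by Capicua (TGAATGAA or TGAATGGA on either strand) in 8 of 10 cases, at 8 of 9 genes, compared with 16.7% of all promoter sites and 28.5% of those of the same length range. The following stretches are shown because they hold those octamers inside Foxr2 sites. They are the plus strand of GRCm38.p6 from RefSeq, 5′ to 3′, with the octamers in capitals, read here as their reverse complements TCCATTCA or TTCATTCA. The Dusp4 stretch lies upstream of the gene at chr8:34807006-34807225, the Spred1 stretch in an intron at chr2:117123169-117123239, the Spred2 stretch in an intron at chr11:19925359-19925406 and the Spry1 stretch in an intron at chr3:37640968-37641015. The Dusp6 stretch, at chr10:99263423-99263452, lies in an untranslated exon. In the Rasa1 stretch, upstream of the gene at chr13:85289774-85289821, the capitals also mark the ETS core GGAAGT, whose last base is the first of the octamer.
Dusp4: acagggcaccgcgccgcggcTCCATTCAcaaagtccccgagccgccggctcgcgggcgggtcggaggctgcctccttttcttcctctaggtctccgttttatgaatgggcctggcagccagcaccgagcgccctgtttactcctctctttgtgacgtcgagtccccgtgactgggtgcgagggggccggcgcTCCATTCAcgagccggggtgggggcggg
Spred1: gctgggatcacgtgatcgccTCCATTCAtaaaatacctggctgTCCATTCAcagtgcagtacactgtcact
Spred2: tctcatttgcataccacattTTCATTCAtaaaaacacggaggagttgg
Spry1: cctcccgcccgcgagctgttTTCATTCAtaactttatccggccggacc
Dusp6: attaattggatTTCATTCActgggtaggaa
Rasa1: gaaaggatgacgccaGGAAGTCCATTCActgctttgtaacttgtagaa

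By the lower of the 2 promoter folds, the Sprouty genes stood below the 10-gene median, although Spry2 was the second highest of the 10 in replicate 2. Spry1 (chr3:37639947-37644598, plus strand) had promoter folds of 10.2 in replicate 1 and 10.5 in replicate 2, with 22 and 31 fragments at the summit. Both summits lay in an untranslated exon, 139 bp and 24 bp downstream of a start, and the folds differed by far less than their counting intervals (95% Poisson, 6.53 to 15.2 and 7.25 to 14.8). These intervals cover counting error only, and since a summit is the highest point of its peak they hold for that point alone. Spry1 had no distal peak in replicate 1, and those of replicate 2 reached a fold of 3.94 at most and were not kept. Its site, chr3:37639580-37642709, thus covers the start and much of this short gene: the peaks at Spry1 covered 66.4% and 59.4% of its 4652 bp body.

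At Spry2 (chr14:105891947-105896819, minus strand) the promoter folds were 11.5 and 19.7, the widest gap between replicates among the 10 genes (mean 15.6 ± 5.82, SD, n = 2). The replicate 2 fold was 1.72 times that of replicate 1, whereas the median ratio over all genes was 1.15. The summits, 846 bp and 759 bp upstream of the start, were 87 bp apart, and the counting intervals of 7.59 to 16.7 and 15.1 to 25.3 overlapped. Replicate 1 had separate promoter peaks on either side of the start, and replicate 2 had a single peak of 7543 bp over the same stretch, so the gene holds 2 promoter sites, chr14:105892728-105896765 and chr14:105897125-105899783. A further site downstream, chr14:105891254-105892294, shared the peak of one of them in replicate 1 and had its own replicate 2 summit with a fold of 6.57. Peaks covered 98.9% and 91.1% of the Spry2 body, the most of any of the 10 genes.

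Spry4 (chr18:38586247-38601415, minus strand) had the lowest kept promoter folds of the family, 8.39 and 8.21 (mean 8.30 ± 0.128, SD, n = 2), with summits 226 bp and 876 bp upstream. The fold ranked at the 45.4 percentile of 11242 genes with promoter peaks in both replicates, but the peaks were wide, 4727 bp and 4291 bp, at the 97.3 and 92.3 percentiles of length among promoter peaks. The gene also had a distal site beyond its downstream end, at chr18:38578321-38579112. Its folds were 6.63 and 10.8, and the summits of the 2 replicates, 22.8 kb and 22.7 kb from the start, lay 84 bp apart. In replicate 2 this downstream peak had a higher fold than the promoter of the gene, and in replicate 1 a lower one.

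By the lower of their folds, the SPRED genes stood above the Sprouty genes, but every Sprouty and SPRED pair had overlapping intervals in replicate 1. In replicate 2 Spry2 lay above Spred2 and Spred3 and overlapped all 3 SPRED genes, Spry1 overlapped Spred2, and Spry4 overlapped none of them. Spred1 (chr2:117121374-117182279, plus strand), the gene mutated in Legius syndrome, had promoter folds of 16.3 and 20.04 (mean 18.2 ± 2.61, SD, n = 2), the highest of the 10 genes in replicate 2. The lower of its folds ranked at the 87.4 percentile of genes with promoter peaks. Its site, chr2:117119476-117125132, was 5657 bp long, longer than 98.99% of the 7807 promoter sites. Distal peaks in the 60906 bp gene reached folds of 3.53 and 3.94 only, so binding above the minimum fold lay at the promoter.

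Spred2 (chr11:19924375-20024026, plus strand) had promoter folds of 14.1 and 18.7 and was the only inhibitor gene with more than 1 distal site. The promoter site, chr11:19923546-19926654, lay beside an upstream site, chr11:19919702-19921308, with a fold of 11.05 in replicate 1. In replicate 1 the upstream site had its own summit 4206 bp upstream, whereas in replicate 2 a single peak of 7444 bp spanned both. The summit of that peak, with the fold of 18.7, lay in the promoter site, so the upstream site has no replicate 2 fold of its own. The intronic site, chr11:19978126-19980113, had folds of 6.19 and 6.24, just above the minimum of 6, with summits 580 bp apart and about 25 kb from the nearest coding start (24.7 kb and 25.3 kb).

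Spred3 (chr7:29158829-29170411, minus strand) had promoter folds of 13.3 and 19.4, with 29 and 58 fragments. The summits lay 1670 bp and 1090 bp upstream of its nearest protein-coding start, inside the annotated gene, which has non-coding transcripts that begin farther upstream. The site, chr7:29168370-29170997, also reached within 1 kb of the start of Ggn, which runs in the opposite direction, so this signal cannot be assigned to Spred3 alone. The distal site in the region, chr7:29155432-29156263, with folds of 7.95 and 6.90, lay at the start of the neighboring gene Fam98c. A peak pair at the start of Psmd8 was kept in replicate 1 with a fold of 7.07 and was not kept in replicate 2 with a fold of 5.91.

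**Figure D1:**
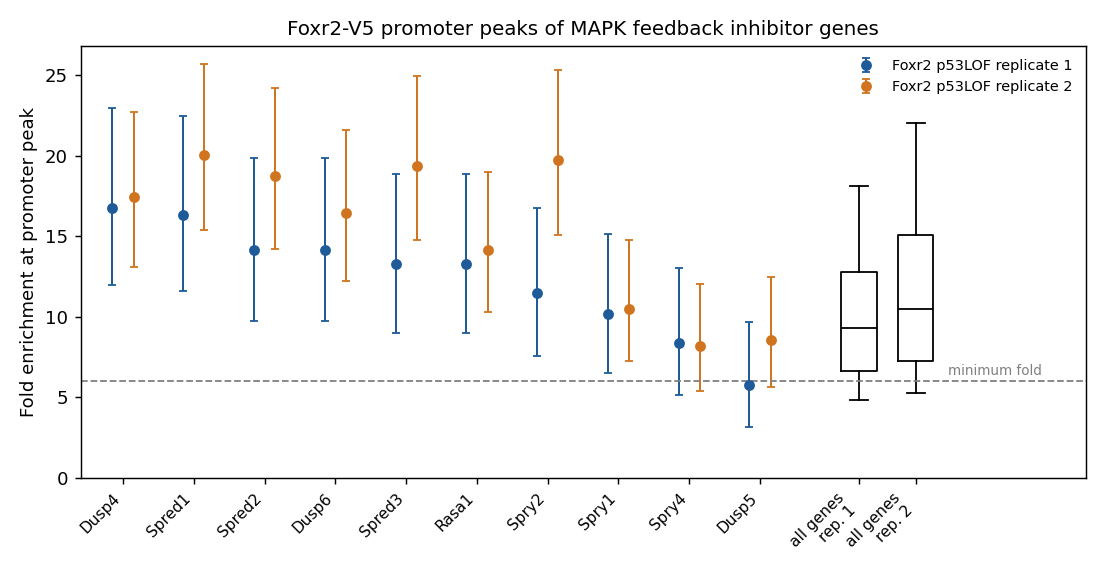
Fold enrichment of the highest promoter peak of each gene before the filter, in Foxr2 p53LOF replicate 1 (blue) and replicate 2 (orange), with 95% Poisson intervals of the summit fragments. Boxes show the quartiles and whiskers the 10 and 90 percentiles of 11242 genes with promoter peaks in both replicates, and the dashed line is the minimum fold of 6. Replicate 1 of Dusp5, at 5.74, is the only point of the 10 genes under that line.

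The ERK phosphatases held both the highest and the lowest promoter fold of the 10 genes in replicate 1, but neither in replicate 2. Dusp4 (chr8:34807297-34819894, plus strand), a nuclear phosphatase, had folds of 16.8 and 17.4 (mean 17.1 ± 0.440, SD, n = 2) at chr8:34806464-34811253. Its lower fold was the highest of the 10 genes, at the 88.5 percentile. The summits fell on either side of the start, 107 bp downstream in replicate 1 and 348 bp upstream in replicate 2. Peaks extended 3956 bp and 4259 bp into the gene, and a distal peak was called in each replicate without passing the filter, with folds up to 3.53 and 5.59.

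Dusp6 (chr10:99263231-99267489, plus strand), the cytoplasmic ERK phosphatase, had promoter folds of 14.1 and 16.4 (mean 15.3 ± 1.62, SD, n = 2). The summits, 410 bp and 326 bp upstream, were 84 bp apart. Replicate 1 had a single peak of 5362 bp, and replicate 2 had a promoter peak of 3573 bp followed by a separate peak with a fold of 8.54 and a summit 1965 bp downstream, which gave the promoter site chr10:99260891-99264463 and the distal site chr10:99264910-99266037. Peaks covered 65.9% and 57.1% of the Dusp6 body.

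Dusp5 (chr19:53529109-53542431, plus strand), a nuclear phosphatase of ERK, departed from the other 9. Its promoter peaks had folds of 5.74 and 8.54, with 12 and 25 fragments, so replicate 1 fell a single fragment short of the minimum. The counting intervals of 3.18 to 9.70 and 5.64 to 12.5 include folds on both sides of 6, and at this depth the absence of a promoter site is not a measured absence of binding. Its intervals lay below those of Dusp4, Spred1 and Spred2 in both replicates, below that of Dusp6 in replicate 1 only, and below those of Spry2 and Spred3 in replicate 2 only. The reproducible site of Dusp5 was intronic, chr19:53534742-53536145, with folds of 8.84 and 8.21. In replicate 1 this intronic fold was above the promoter fold and in replicate 2 just below it. The summits, 6419 bp and 6362 bp from the start, were 57 bp apart, and 54.6 was the percentile of its lower fold among 4136 distal sites. The stretch from the replicate 2 summit onward, chr19:53535471-53535700 (plus strand, RefSeq GRCm38.p6), is shown because it lies within the only reproducible site of this gene, with the ETS core GGAAGT in capitals.
Dusp5: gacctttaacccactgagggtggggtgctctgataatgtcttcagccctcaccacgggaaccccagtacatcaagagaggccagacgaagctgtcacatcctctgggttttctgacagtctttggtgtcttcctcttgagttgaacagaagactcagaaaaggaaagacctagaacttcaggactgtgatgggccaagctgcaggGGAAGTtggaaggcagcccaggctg

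Rasa1 (chr13:85214780-85289130, minus strand) had promoter folds of 13.3 and 14.1 (mean 13.7 ± 0.616, SD, n = 2), with 29 and 42 fragments and summits 617 bp and 103 bp upstream, at chr13:85286996-85291938. Weak distal peaks were called along its 74351 bp body, with folds up to 4.42 in replicate 1 and 4.60 in replicate 2, and none passed the filter. Promoter folds on chromosome 13 were high as a whole, 1.33 times the genome level in each replicate. Divided by that level, the Rasa1 folds were 9.94 and 10.6. Spred2, on chromosome 11, moved in the same way from 14.1 and 18.7 to 11.1 and 14.4. Other genes moved up, Spred1 to 18.4 and 23.5 and Dusp6 to 15.9 and 17.7, so that Spred1 had the highest lower fold in place of Dusp4 (15.9), and Spry1 (8.71) fell below Spry4 (8.87).

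Ordered by the lower of the 2 promoter folds, the genes ran Dusp4, Spred1, Spred2 and Dusp6 (equal), Spred3 and Rasa1 (equal), Spry2, Spry1, Spry4 and Dusp5. Neighbors in this order were not separated by their counting intervals in either replicate, except Spry2 and Spry1 in replicate 2. The ends of the order were separated, since Dusp5 lay below Dusp4, Spred1 and Spred2 in both replicates. Spry4 lay below Dusp4, Dusp6, Spry2 and the 3 SPRED genes in replicate 2 only, and overlapped all of them in replicate 1. The median promoter fold of the 10 genes was 13.3 in replicate 1 and 16.9 in replicate 2, compared with 8.84 among 11661 and 9.86 among 11875 genes with a promoter peak. The lower fold was above the median of all such genes at 8 of 10, and the exceptions were Spry4 and Dusp5. Because 1 is added to both terms, folds depend on the depth of a library, and no direction was read between the replicates.

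Before the filter, every one of the 10 genes had a promoter peak in both replicates, compared with 51.3% of all genes, and 63.7% of all genes had any peak in both. The regions held 25 peaks in replicate 1 and 40 in replicate 2, and 16 were kept in each. The surplus of replicate 2 was distal, with 30 distal peaks against 14, while promoter peaks numbered 10 and 11. Distal peaks had a median fold of 4.86 and 4.27, and 6 of them passed the filter in each replicate. Of the 7 distal sites, 3 had a summit of their own in both replicates away from any gene start, those of Spry4, Spred2 (intronic) and Dusp5. Another 3, at Spry2, Spred2 and Dusp6, were continuous with a promoter peak in one replicate, and the last was the Fam98c start.

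**Figure D2:**
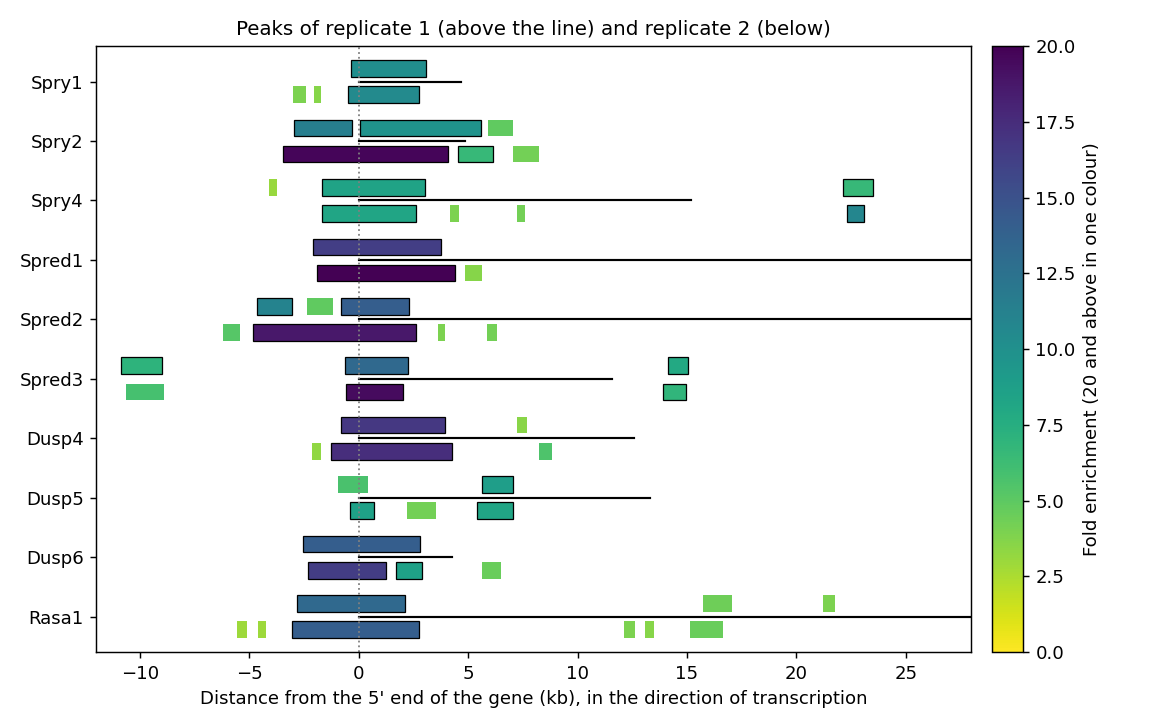
Peaks before the filter around each gene, drawn to scale in the direction of transcription from 12 kb before to 28 kb after the 5′ end of the gene, with replicate 1 above and replicate 2 below the gene line. Color gives fold enrichment and outlined peaks passed the filter. A promoter block passed the filter in both replicates at 9 genes, and among the pairs away from the start are those of Spry4, Dusp5 and the neighbors of Spred3, and a weak pair in Rasa1 that was not kept. Peaks farther into Spred1, Spred2 and Rasa1 lie outside the axis, among them the intronic site of Spred2.

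Promoter peaks of the inhibitor genes were long as well as high. Their median length was 4091.5 bp in replicate 1 and 4911 bp in replicate 2, compared with 1642 bp and 1927 bp over all promoter peaks. To allow for height, each was set beside promoter peaks with a fold within 20% of its own. The peak was longer than the median of those peers at all 10 genes in replicate 1 and at 8 of 10 in replicate 2, the exceptions being Spred3 and Dusp5. Spry4 exceeded its peers most in replicate 1, by 2.72 times, and it measured 2.25 times their median in replicate 2. Rasa1 stood at 2.13 times in both replicates, and Spred1 at 2.28 and 1.98 times. Spry2 and Spred2 differed between replicates, from 1.23 and 1.30 times in replicate 1 to 2.42 and 2.41 times in replicate 2, where separate peaks had joined. Dusp6 moved the other way, from 2.24 to 1.22 times, as did Dusp5, from 1.23 to 0.554 times. No test was made of these lengths.

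**Figure D3:**
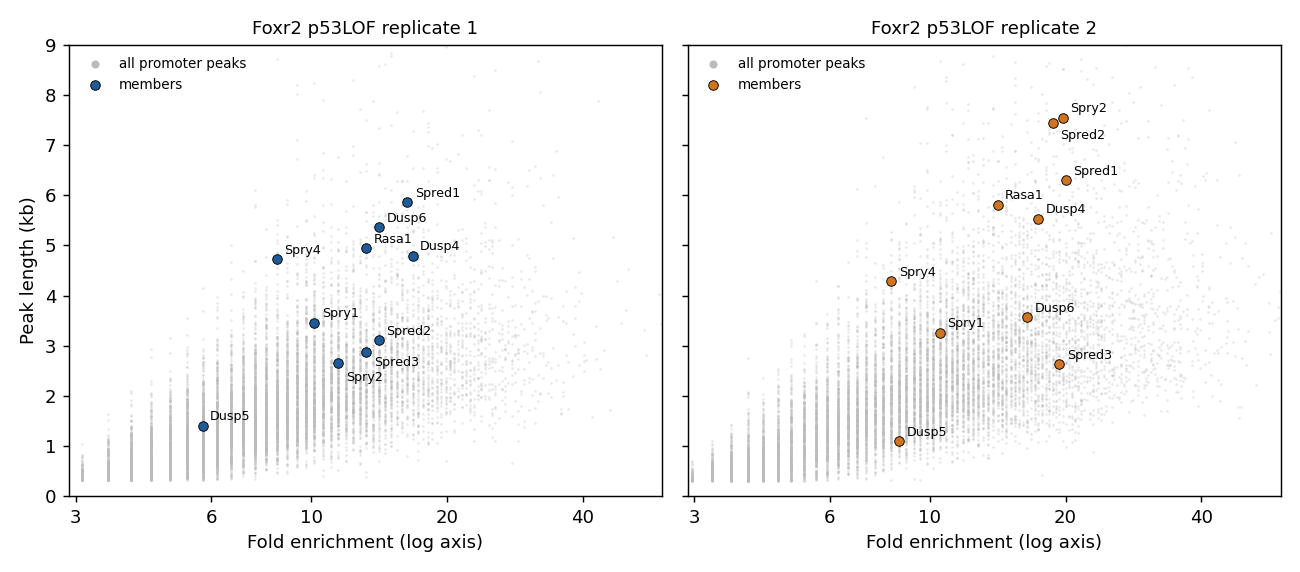
Length of promoter peaks (kb) against fold enrichment (log axis) in each Foxr2 p53LOF replicate, with all promoter peaks in gray and the highest promoter peak of each inhibitor gene colored. Most colored points sit above the middle of the gray cloud at their fold, and Dusp5 sits at low fold and short length in both. The axes leave out 27 peaks of replicate 1 and 83 of replicate 2 that exceed a fold of 60 or a length of 9 kb.

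Most promoters of these genes are rich in CpG. The ratio of observed to expected CpG within 1 kb of the start ranged from 0.407 at Spred3 to 1.05 at Spry1, and 9 of 10 were above the median of 0.478 over all genes. Among the 12323 genes with a ratio at least that of Spred3, 63.4% had a promoter site. As a background for the 9 of 10 seen here, this is closer than the share of all genes. The pool starts below the median ratio, however, whereas the inhibitor genes other than Spred3 had ratios of 0.616 or more. It is therefore only loosely matched. Dusp5, with a ratio of 0.817, was the gene without a promoter site, a single fragment short in replicate 1. Spred3, with the lowest ratio, had one. Its summits, 1670 bp and 1090 bp upstream, lay outside the stretch in which CpG was counted, in a site shared with the start of Ggn.

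Sequences recognized by regulators of these genes were then counted within the sites. The letters searched on both strands were CCGGAAGT (ETS), its inner part GGAAGT (ETS core, which every ETS match also contains), TGAATGAA and TGAATGGA (Capicua) and TGACTCA and TGAGTCA (AP-1). Capicua octamers had 16 matches in the 10 promoter sites, 0.412 per kb, compared with 0.103 per kb over 7807 promoter sites. Among the 1715 promoter sites of the same range of length, 2628 to 5657 bp, the density was 0.112 per kb, 28.5% had a match and 6.41% had at least 2. Of the 10 sites, 8 had a match and 6 had at least 2. Neither site of Spry2 had one.

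Most of the 16 octamers lay more than 100 bp from the summit of either replicate. Spred1 had 4 matches, all more than 2 kb from the summit of either replicate and 1306 to 2081 bp downstream of the start. Dusp6 had 2, 207 bp and 240 bp downstream of the start, and Spred3 had 1, whose middle lay 7 bp upstream of a coding start. In 200 bp windows around the summits, the octamer was present at 2 of 10 sites in replicate 1 and at 1 of 10 in replicate 2, compared with 1.32% and 1.40% of all promoter sites. The windows with a match were those of Rasa1 (51 bp from the summit) and Spry4 (16 bp) in replicate 1 and of Dusp4 (81 bp) in replicate 2. A match of letters does not show that Capicua was bound. The octamers were searched because many of these genes are switched on in part through release of Capicua. Their density beside other promoter sites is thus no measure of Foxr2 binding.

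**Figure D4:**
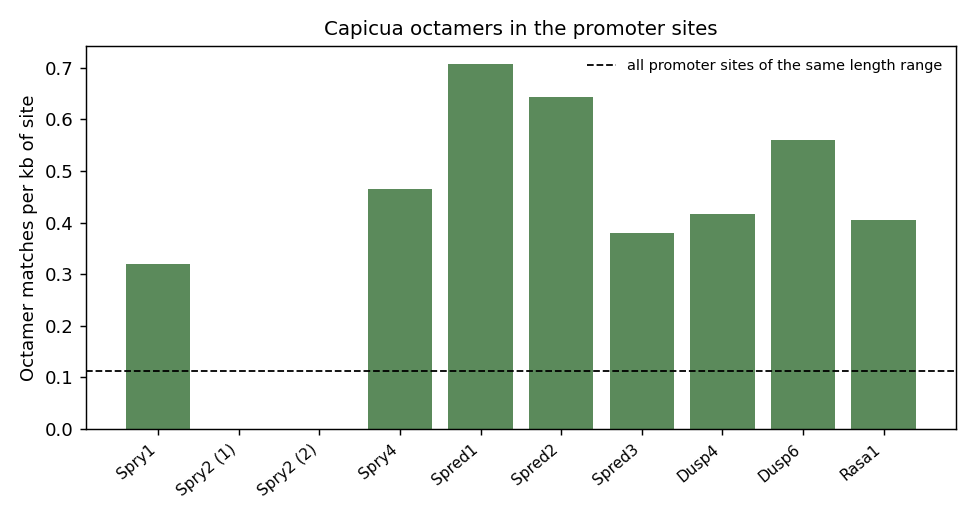
Capicua octamer matches per kb in each of the 10 promoter sites, with the 2 sites of Spry2 shown separately. The dashed line is the density over the 1715 promoter sites of the same length range, 0.112 per kb. The bars of 8 sites exceed the line, and those of Spry2 are at 0.

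ETS and AP-1 letters showed no such excess. The longer ETS sequence occurred in 1 of 10 promoter sites, 2675 bp upstream of Spry2, and 13.9% of promoter sites of the same length range held it. The shorter core occurred in 8 of 10, at 0.541 per kb, compared with 86.8% and 0.662 per kb in that range. AP-1 letters occurred in 3 of 10 (Spred1, Spred2 and Spred3), compared with 36.2%. In the 7 distal sites, the ETS core occurred in 4, Capicua octamers in 2, AP-1 letters in 1 and the longer ETS sequence in 0. Over all 4136 distal sites, which unlike these 7 leave out sites at the start of any other gene, such as that of Fam98c, the shares were 62.4%, 22.9%, 31.2% and 2.80%. With so few sites, shares of this size cannot be told apart.

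Genes at other steps of the pathway give the setting for these values. Of 50 genes in 6 lists, 38 had a reproducible site, 34 a promoter site and 23 a distal site, and none had a V5 control peak. The shares over all genes were 50.0%, 39.2% and 25.8%. Of the genes with a CpG ratio at least that of Spred3, 63.4% had a promoter site. Their median lower promoter fold was 9.28 over the 43 with promoter peaks in both replicates, compared with 13.3 for the inhibitor genes. The difference was not tested.

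Receptors had the lowest list median. Of 12, 5 had a promoter site, and the median lower fold over the 9 with promoter peaks in both replicates was 6.19. The highest were Fgfr2, a fibroblast growth factor receptor (11.9 and 15.1), and Igf1r, the receptor of insulin-like growth factor (14.1 and 11.5). No Foxr2 peak was called at Egfr or Pdgfrb. Adaptors and RAS activators had a promoter site at 5 of 8, among them Shc1 (30.05 and 43.4), which links receptors to RAS activation, and Grb2 (13.3 and 14.1), which carries the exchange factor SOS. Rasgrp1, a RAS exchange factor, had no peak. RAS genes and the kinases below them had a promoter site at 10 of 11, and their median lower fold over all 11 was 8.87. Nras had folds of 19.0 and 20.04 and Map2k2, a MEK gene, had 11.5 and 14.8.

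The remaining lists hold other negative regulators and ERK-responsive genes. Among 5 other RAS GTPase-activating genes, 4 had a promoter site, and the median lower fold over all 5 was 9.28. The highest were Rasal2 (13.7 and 15.8) and Rasa3 (11.5 and 17.7). Among 7 other dual-specificity phosphatases, 5 had a promoter site, the median lower fold was 11.9 over the 6 with promoter peaks in both replicates, and Dusp9 had no peak. Dusp10, which acts on p38 and JNK, had folds of 17.2 and 26.6, and Dusp7, an ERK phosphatase, had 16.8 and 20.7, and Dusp10 thus lay above all 10 inhibitor genes in each replicate. Among 7 ERK-responsive genes, 5 had a promoter site, and the median lower fold over the 5 with promoter peaks in both replicates was 13.7. Egr1, an immediate early gene, had folds of 23.9 and 35.5, and Ccnd1, which encodes cyclin D1, had 20.3 and 20.4, while Epha2 had no peak.

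**Figure D5:**
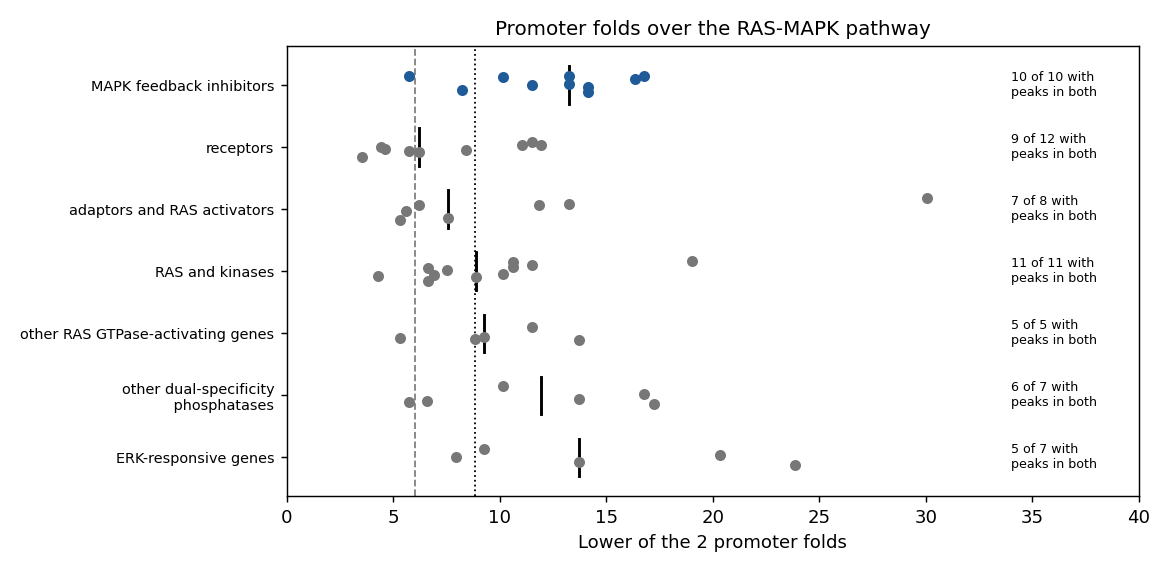
Lower of the 2 promoter folds for each gene with promoter peaks in both Foxr2 p53LOF replicates, by list, with the inhibitor genes in blue and other RAS-MAPK genes in gray. Black bars are list medians, the dashed line is the minimum fold of 6 and the dotted line is the median of all such genes, 8.84. The medians run from 6.19 for receptors to 13.7 for ERK-responsive genes.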

How the data were processed

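Foxr2-V5 CUT&RUN peak lists of 4 libraries were used. Per the methods and the submitters' processing notes, the authors trimmed reads with Trimmomatic 0.39, aligned them to mm10 with BWA 0.7.17, removed duplicates with Picard 2.26.6, made tracks with HOMER 4.11 and called peaks per library with MACS2 2.2.7.1. A control library for peak calling is not given in the sources used here. For each peak the authors deposited the fold enrichment at its summit, which is a ratio to the background MACS2 assumed. They also deposited −log10 p and −log10 q, both from MACS2, and a score that restates the −log10 q.

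The filters of the methods were applied to the deposited peaks (control overlap of at least 10 bp, −log10 q of 6 or less, fold of 6 or less, or length of at least 10000 bp removed). The step of the study that used open chromatin was not repeated. Peak lists give no read totals. Background coverage was recovered as the value that turned folds into whole fragments (within 0.02) that fit the deposited p-values. Precision came from those fragments (95% Poisson, counting error only). Genes were GENCODE M21, and sequences came from RefSeq GRCm38.p6. Python 3.11.15, NumPy 2.4.6 and SciPy 1.17.1 were used, and the steps were tested on simulated data. No sequence is shown for Spry4.

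The inhibitor genes, pathway lists and motifs were chosen with earlier results of these data known. Named pathway genes were, per list, those with the highest and second highest lower fold at a promoter site and those without a peak. Alternatives covered the control overlap, fold, q, length, sharing, gene region and promoter window, the starts used and leaving out each library. Dividing each fold by its chromosome's level was added after seeing the data. RNA-seq and multiome data were not used here.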

Additional observations from a re-analysis of the deposited data

How the results depend on the processing

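Counts of inhibitor genes were recomputed under 17 settings, giving 85 counts, of which 82 stayed within 1.5 times the value reported. The other 3 all came from a minimum fold of 10 in place of 6. There, inhibitor genes with a distal site numbered 1 in place of 6, reproducible sites in their regions 9 in place of 17, and pathway genes with a promoter site 20 in place of 34. The distal site that remained was the upstream one of Spred2, which took its replicate 2 fold from the promoter peak. Inhibitor genes with a promoter site numbered from 8 to 10 over all settings. Spry4 had none at a minimum fold of 10, where 19.7% of all genes had one. Dusp5 gained one with no minimum fold, without Foxr2 p53LOF replicate 1, and when each fold was divided by its chromosome's level, a setting chosen after seeing the data. No V5 control peak lay in the regions of the inhibitor genes or of the pathway genes. Settings that changed only the control overlap or left out a V5 control library therefore could not move any of these counts. Their counts are among the 82 and say nothing about stability. A deposited promoter fold can move only when a Foxr2 p53LOF replicate is left out or the chromosome level is divided out, so the other settings say nothing about its stability. Leaving out the replicate that gave the lower fold puts the other in its place, which with 2 replicates always exceeds 1 SD and is no measure of stability. With the chromosome level divided out, the lower fold moved by more than 1 SD at 5 of 9 genes (Spry1, Spry4, Dusp4, Dusp6 and Rasa1). No paired analysis was possible because the counts and folds come from no test, and nothing in the labels pairs a Foxr2 p53LOF library with a control library beyond the replicate number.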
